A study of Homo sapiens with 46 samples.

Results

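The genes described here are 8 genes through which a cell senses DNA or RNA in its cytosol: CGAS, STING1, TBK1, IRF3, IFI16, TREX1, IFIH1 and MAVS. They were named as a set by symbol, out of 62756 genes counted, with the rise of STING1 in the Lamin B1 degron line already known. Every comparison of that line after auxin with its own untreated wells or with the parental response, and the STING1 level of its untreated wells, is therefore given as values with no test. Of the 8 genes, 6 passed the filter on low counts, as did 21484 genes in all. TREX1 and IFI16 did not.

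In the DNA branch, cGAS binds double-stranded DNA in the cytosol and makes the second messenger cGAMP, which binds STING at the endoplasmic reticulum. STING then moves to the Golgi and recruits the kinase TBK1, which phosphorylates the transcription factor IRF3, and IRF3 turns on interferon beta. In the RNA branch, MDA5, the product of IFIH1, recognises long double-stranded RNA and signals through MAVS on mitochondria to the same kinase and transcription factor. The nuclear lamina, the meshwork of lamins under the inner nuclear membrane, is known for keeping nuclear DNA apart from the cytosol, and several cancer lines, colorectal ones among them, are known to express little cGAS or STING.

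RNA was sequenced from 46 wells of DLD-1, an established human colorectal adenocarcinoma line that grows attached to the dish. Cells were untagged (parental, labelled WT) or had 1 of their endogenous lamins fused, at its N terminus, to a degron that auxin activates: lamin A/C (LAC), lamin B1 (LB1) or lamin B2 (LB2). All 4 lines received 1 mM auxin for 0, 16 or 96 h, so the parental wells give the response to auxin without a degron. The 12 groups held 4 wells each, except LB1 at 0 h and LB2 at 96 h with 3. Auxin was dissolved in DMSO, and the labels do not say whether wells at 0 h received DMSO or how many clones a tagged line represents. Each replicate was 1 well of a 6-well plate, so the p-values measure the spread between wells.

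Library totals ran from 479446 to 37309421 counts (median 11533218), and 6 libraries held under 5000000. Levels are given in CPM, counts relative to the library's total, scaled by the TMM method. The largest count that a zero allows, 3 counts, is 6.26 CPM before that scaling in the shallowest library and 0.0804 CPM in the deepest, which covers counting error only. The epithelial keratin KRT8 was high (median 3979 CPM), as was EPCAM, another epithelial marker (460 CPM). The intestinal marker CDX2 had a median of 142 CPM, while CDX1, VIL1 and LGALS4 had medians of 0, 1.26 and 0.321 CPM. The 7 markers of immune, stromal and endothelial cells summed to between 2.18 and 23.0 CPM in any library, with COL1A2 at 0 in all and VWF the highest (median 6.38 CPM). In the line tagged on it, each lamin gene's RNA had the lowest median of the 4 lines: LMNA 330 CPM in LAC against 653 in parental cells, LMNB1 99.5 against 174 in LB1 and LMNB2 142 against 376 in LB2. A degron acts on the protein, so these RNA levels do not check its removal. Replicate 1 of LAC at 0 h (3318819 counts) and replicate 1 of LB2 at 0 h (1894447 counts) stood apart: LMNA was 773 CPM in the first against 263 to 373 in the other LAC wells at 0 h, and LMNB2 was 261 CPM in the second against 99.9 to 108.8. Several results that rest on either library are given with and without it. For the other pathway genes below, the shares called in each line and the differences at 0 h are given with both. In LAC at 96 h against 0 h, leaving out both took the number of all genes past the threshold from 3304 to 2429.

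Per kilobase of annotated exon, MAVS had the highest level of the 8 genes, with a median over all libraries of 19.0 CPM per kb. IRF3 followed at 17.6 CPM per kb, and the ranges of MAVS and IRF3 overlapped. IFIH1 (4.25 CPM per kb) and TBK1 (3.39 CPM per kb) lay in the middle. STING1 had 1.29 CPM per kb and CGAS 0.0592 CPM per kb. By this measure the adaptor MAVS and the transcription factor IRF3 stood highest in the set. The DNA sensor CGAS stood lowest of those that passed the filter. The order depends in part on the exon length used: in CPM, TBK1 (median 49.9) lay above IFIH1 (22.2). The IRF3 counts are uncertain, as described below.

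CGAS, the DNA sensor that makes cGAMP (ENSG00000164430, GRCh38 chromosome 6, 73413515 to 73452297), separated the parental line from all 3 tagged lines before any auxin was added. In parental wells at 0 h it stood at 3.41, 2.56, 4.66 and 2.90 CPM. In LAC at 0 h it stood at 1.29, 0.666, 0.159 and 0.226 CPM, in LB1 at 0.0992, 0 and 0 CPM, and in LB2 at 2.22, 0, 0.184 and 0.51 CPM. No tagged library at 0 h reached the lowest parental one. The highest tagged value, 2.22 CPM, came from 4 counts in replicate 1 of LB2, which stood apart as described. Counts summed over the wells of a group were 97 in parental cells, 26 in LAC, 2 in LB1 and 8 in LB2 at 0 h. Per count sequenced, CGAS was 7.02-fold higher in parental cells than in LAC (95% interval 4.51 to 11.3), 53.3-fold higher than in LB1 (14.4 to 446.1) and 13.7-fold higher than in LB2 (6.69 to 32.7). These intervals cover counting error only. Without the first replicate of each tagged line the ratio was 7.78 for LAC (4.86 to 13.0) and 25.8 for LB2 (9.77 to 96.7). For LB1, whose 2 counts both lay in replicate 1, the other wells had 0, which gives at least 13.6-fold, taken at 3 counts over the group. In edgeR's quasi-likelihood test over wells CGAS was lower at 0 h in LAC (log2 fold change -2.70 ± 0.66 SE, adjusted p = 0.0032), LB1 (adjusted p = 0.00015) and LB2 (-3.34 ± 0.78, adjusted p = 0.0035). The lower level was called in all 3 lines under each of the 56 alternatives run, among them the fit with no low-count filter. Most CGAS counts lay in parental libraries (341, against 132 in the 3 tagged lines), which helped it pass that filter. A call in a tagged line was therefore more likely to be lower than higher.

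The low CGAS level of the tagged lines held through the time course. Across 12 parental libraries CGAS ranged from 1.24 to 5.35 CPM (median 2.73), and across 34 tagged libraries from 0 to 2.22 CPM (median 0.169). Of the tagged libraries 24 had 3 counts or fewer and 4 had none. Over all times the parental line exceeded LAC 8.19-fold (6.30 to 10.8), LB1 10.7-fold (7.53 to 15.8) and LB2 12.2-fold (8.42 to 18.4). No change of CGAS with auxin was called in the parental, LAC or LB2 line at 16 or 96 h, with log2 fold changes between -1.28 and -0.12 and adjusted p between 0.333 and 0.932 in edgeR. With 8 to 26 counts in the LAC and LB2 groups, the depth limits these comparisons: the 95% interval for LAC at 16 h ran from -2.73 to 0.18 on the log2 scale. In LB1, CGAS had 2 counts at 0 h, 20 at 16 h and 12 at 96 h, or 0.0638, 0.351 and 0.237 CPM before scaling. The gene most like CGAS over the 12 group means, among 14006 genes searched, was ZNF430, a zinc finger gene on chromosome 19 (Pearson's r 0.93, a description). ZNF430 ranged from 1.99 to 5.24 CPM in parental libraries, from 0 to 0.112 in LAC, from 0 to 0.474 in LB1 and from 0 to 1.11 in LB2. CGAS shares 180 exonic bases (4.31%) with DDX43 on the opposite strand, and DDX43 had 18 counts in all libraries together against 473 for CGAS.

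**Figure D1:**
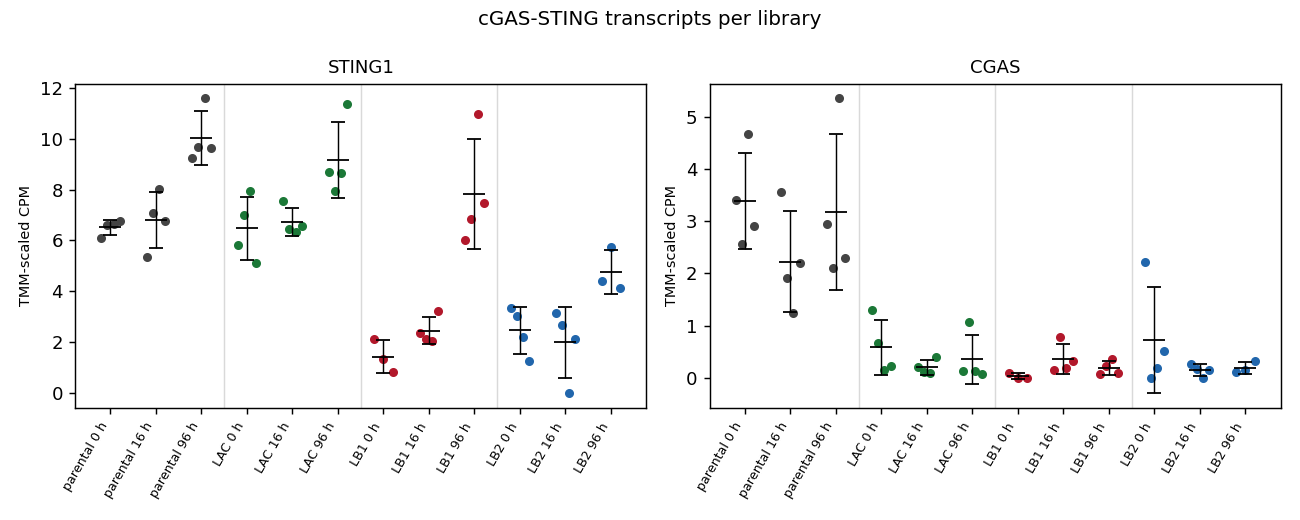
STING1 (left) and CGAS (right) in TMM-scaled CPM in each of the 46 libraries, grouped by line and hours of auxin; points are wells, horizontal bars are means and whiskers are SD. STING1 lies lowest in LB1 and LB2 at 0 and 16 h and reaches 6.01 to 10.96 CPM in LB1 at 96 h, while CGAS lies at 2.22 CPM or lower in every tagged library.

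STING1, the adaptor that binds cGAMP (ENSG00000184584, GRCh38 chromosome 5, 139475533 to 139482935), was the member the set was chosen on. In LB1 it stood at 2.13, 1.33 and 0.828 CPM at 0 h, at 2.37, 2.13, 2.05 and 3.23 CPM at 16 h, and at 6.01, 6.85, 10.96 and 7.48 CPM at 96 h. The 96 h wells did not overlap the 0 h wells, and the 16 h wells did. The log2 fold change was 0.69 at 16 h and 2.33 at 96 h, or 5.04-fold. The depth was low in the untreated wells, with 43, 2 and 9 counts. Without replicate 1, which holds most of those counts, the values were 1.47 and 3.11.

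Before auxin STING1 differed among the lines. Parental wells at 0 h had 6.09, 6.60, 6.64 and 6.77 CPM, and LAC wells had 5.83, 6.99, 7.94 and 5.13 CPM. LB2 wells had 3.33, 3.03, 2.21 and 1.27 CPM. LAC overlapped the parental line, and LB1 and LB2 each lay wholly below it. STING1 was lower in LB2 than in parental cells at 0 h (log2 fold change -1.40 ± 0.26 SE, adjusted p = 0.00024 in edgeR), and this was called under each of the 56 alternatives. LAC showed a difference of -0.01 (95% interval -0.46 to 0.45, adjusted p = 0.992). For LB1 at 0 h the value was -2.06, or -2.83 without its replicate 1. At 0 h 5 of the 17 member comparisons tested were called, 1 higher and 4 lower, against 9.35% of all gene comparisons: CGAS and MAVS in LAC (2 of 6, against 15.8% of all genes), CGAS in LB1 (1 of 5, against 4.05%), and CGAS and STING1 in LB2 (2 of 6, against 8.21%). With library size only there were 4, all lower. The 3 CGAS calls concern 1 gene and share the parental wells at 0 h, so they are not separate. CGAS passed the filter with most of its counts in parental wells, which made calls in the lower direction more likely. The count of 5 is therefore not read as an excess over the share of all genes. CGAS had 3 counts or fewer in 24 of the 34 tagged libraries.

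After 96 h of auxin STING1 also stood higher in the lines in which it was not used to choose the set. In LB2 at 96 h it measured 4.40, 5.74 and 4.15 CPM, every well above the highest at 0 h (3.33). It rose by 0.95 ± 0.27 on the log2 scale, or 1.93-fold (adjusted p = 0.0367 in edgeR). The LB2 wells at 0 h held 84 STING1 counts together, with 5 in the lowest well. They also gave the lower STING1 level of LB2 before auxin, so that call and this rise are not separate. Of 56 alternatives 8 ended the call of the LB2 rise, among them the fit to the compared groups alone (0.97, adjusted p = 0.298) and no low-count filter (0.95, adjusted p = 0.115). Leaving out replicate 3 or 4 at 0 h gave 0.87 and 0.82 (adjusted p = 0.112 and 0.104). Leaving out replicate 1, 2 or 3 at 96 h gave 1.00, 0.80 and 1.05 (adjusted p = 0.0592, 0.188 and 0.064), and without libraries under 5000000 counts it was 0.86 (0.0729). In parental cells at 96 h STING1 measured 9.23, 9.67, 11.6 and 9.65 CPM, again above every well at 0 h. That difference was 0.62 ± 0.22 (adjusted p = 0.0771), and it was called in 8 alternatives, such as without both libraries that stand apart (0.65, adjusted p = 0.0343). Each of 4 single libraries of other lines gave the call when left out: replicate 1 of LAC at 0 h (0.65, adjusted p = 0.0421), replicates 1 and 4 of LB2 at 0 h (0.66 and 0.66, adjusted p = 0.0453 and 0.0472) and replicate 3 of LB2 at 16 h (0.66, adjusted p = 0.0406). In LAC at 96 h STING1 measured 8.69, 7.94, 8.66 and 11.4 CPM, and the lowest of these wells lay within the 0 h range. The change was 0.49 ± 0.22 (adjusted p = 0.113 in edgeR), and with the trend on GC content removed it was 0.71 (adjusted p = 0.0142). Of 56 alternatives 3 gave the call: that one, library size only and voom.

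Set against the parental response at 96 h, the STING1 change of LB2 differed by 0.33 (95% interval -0.36 to 1.02, adjusted p = 0.724) and that of LAC by -0.12 (-0.73 to 0.49, adjusted p = 0.861), both in edgeR. For LB1 the difference was 1.72, or 2.49 without replicate 1 at 0 h, given without a test. Ordered by group mean, STING1 ran from 10.0 ± 1.06 CPM (SD, n = 4) in parental cells at 96 h, through LAC at 96 h (9.16 ± 1.51, n = 4) and LB1 at 96 h (7.82 ± 2.18, n = 4), to LB2 at 96 h (4.76 ± 0.86, n = 3). The parental and LAC groups at 0 and 16 h, between 6.47 and 6.81 CPM, lay between those of LB1 and LB2 at 96 h. The lowest 4 groups were LB2 at 0 h (2.46 ± 0.92, n = 4), LB1 at 16 h (2.45 ± 0.54, n = 4), LB2 at 16 h (1.99 ± 1.39, n = 4) and LB1 at 0 h (1.43 ± 0.66, n = 3). Neighbours in this order overlapped between wells, except LB2 at 96 h and LB2 at 0 h. The genes most like STING1 over the 12 group means were PDE9A, GP1BA and ZXDC, each with a Pearson's r of 0.92, a description over 12 means of the same libraries. PDE9A, a phosphodiesterase gene, went from a mean of 0.722 CPM in LB1 at 0 h to 2.56 at 96 h, against 2.97 in parental cells at 0 h.

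IFI16, another sensor of DNA (ENSG00000163565, chromosome 1), had 6 counts in all 46 libraries together, with 3 the most in any library. It was not detectable at this depth in the other 43 libraries. TREX1, the exonuclease that degrades cytosolic DNA (ENSG00000213689, chromosome 3), was listed at 0 in every library. All 1448 exonic bases of TREX1 lie inside ATRIP on the same strand, and ATRIP had 19234 counts, so reads from TREX1 and ATRIP cannot be told apart in these counts.

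RefSeq (GRCh38.p14) gave a promoter for the RNA sensor IFIH1 and for its adaptor MAVS, and the 250 bases before each start are shown because the interferon response element, a site for factors turned on by interferon, separates them. Capitals mark matches on either strand to the letters used here for that element, GAAA, any 2 bases and GAAA.

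IFIH1, chr2:162318685-162318934, minus strand: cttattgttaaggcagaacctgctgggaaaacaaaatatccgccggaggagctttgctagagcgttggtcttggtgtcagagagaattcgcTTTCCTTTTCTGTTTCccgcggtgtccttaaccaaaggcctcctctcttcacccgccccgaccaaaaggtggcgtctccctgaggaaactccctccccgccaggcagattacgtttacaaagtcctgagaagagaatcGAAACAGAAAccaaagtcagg
MAVS, chr20:3846584-3846833, plus strand: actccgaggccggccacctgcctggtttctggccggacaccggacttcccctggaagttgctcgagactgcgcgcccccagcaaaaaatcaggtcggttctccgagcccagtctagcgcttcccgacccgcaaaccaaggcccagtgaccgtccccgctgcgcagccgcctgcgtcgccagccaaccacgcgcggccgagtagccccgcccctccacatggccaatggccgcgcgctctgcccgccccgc

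The IFIH1 promoter held 3 matches, starting 159, 153 and 21 bases before the gene start, and the first pair overlap. Of 35116 promoters in the table, 3.02% held a match in the 250 bases before the start. The promoters of TBK1, TREX1 and IFI16, not shown, held none. The MAVS promoter held none, and had 28 CpG dinucleotides against 12 in that of IFIH1 and a median of 11 over all promoters. On either strand, neither held the gamma-activated sequence, searched as TTC, any 3 bases and GAA (6.57% of promoters), or the cyclic AMP response element, searched as TGAC followed directly by GTCA (1.65%). A match is a description of letters and not a measured site.

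IFIH1, which encodes the RNA sensor MDA5 (ENSG00000115267, chromosome 2, 162267074 to 162318684), rose after 96 h in LAC and LB2. LAC wells at 0 h had 12.9, 20.4, 19.9 and 20.3 CPM and at 96 h 27.8, 28.0, 26.8 and 34.0 CPM. LB2 wells had 12.8, 16.6, 20.6 and 21.7 CPM at 0 h and 33.7, 25.8 and 30.3 CPM at 96 h. In both lines every 96 h well lay above every 0 h well. The rise was 0.63 ± 0.16 in LAC (1.55-fold, adjusted p = 0.0054 in edgeR) and 0.71 ± 0.18 in LB2 (1.63-fold, adjusted p = 0.0138). In LAC the changes of all genes followed GC content (Spearman's rho -0.63 across 8547 genes at 96 h), IFIH1 has a GC content of 40.6%, and with that trend removed its change was 0.37 (adjusted p = 0.0896). In LB2 the call was lost in the fit to the compared groups alone (0.72, adjusted p = 0.213) and without replicate 2 at 0 h (0.65, 0.0584), replicate 1 at 96 h (0.62, 0.0896) or replicate 3 at 96 h (0.70, 0.0667). Parental wells measured 16.9 to 22.6 CPM at 0 h and 19.1 to 30.3 CPM at 96 h, a difference of 0.32 ± 0.17 (adjusted p = 0.236). LB1 wells spanned 24.6 to 26.0 CPM at 0 h and 21.5 to 29.4 CPM at 96 h, a difference of 0.04. Neither the LAC nor the LB2 change of IFIH1 differed from the parental one past the threshold at 96 h: 0.31 (95% interval -0.15 to 0.76, adjusted p = 0.449) and 0.38 (-0.10 to 0.86, adjusted p = 0.525) in edgeR.

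MAVS, the mitochondrial adaptor (ENSG00000088888, chromosome 20, 3846799 to 3876123), rose with auxin in parental cells. Parental wells had 182, 183, 192 and 157 CPM at 0 h, 289, 255, 250 and 268 CPM at 16 h, and 237, 313, 281 and 267 CPM at 96 h. All wells with auxin lay above all wells without. The rise was 0.57 ± 0.16 at 16 h (1.49-fold, adjusted p = 0.0217 in edgeR) and 0.62 ± 0.16 at 96 h (1.54-fold, adjusted p = 0.0126). The 16 h call was lost with RLE scaling (0.47, adjusted p = 0.0579), with library size only (0.46, 0.0503), and without replicate 4 at 0 h (0.52, 0.0803), replicate 1 at 16 h (0.53, 0.0686) or replicate 4 at 16 h (0.52, 0.0749). The 96 h call was lost without replicate 4 at 0 h (0.57, adjusted p = 0.0544).

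No MAVS change was called within LAC. Its wells had 349, 218, 224 and 222 CPM at 0 h, 266, 254, 278 and 262 CPM at 16 h, and 242, 167, 164 and 212 CPM at 96 h. Replicate 1 at 0 h was highest in its group, and 3 of the 4 wells at 96 h lay below the lowest well at 0 h. The LAC change at 96 h was -0.36 ± 0.16 (adjusted p = 0.127), or -0.16 without replicate 1 at 0 h (adjusted p = 0.612), and at 16 h it was 0.07 (adjusted p = 0.860). The 96 h change differed from the parental change by -0.98 ± 0.23 (adjusted p = 0.0079 in edgeR). That difference was called under each of the 56 alternatives, between -1.13 and -0.77, also without the replicate that stands apart and with the GC trend removed. At 96 h in LAC 7.4% of all genes differed so from the parental response. It was the only 1 of 24 member response differences called in LAC and LB2, where 1.97% of all gene comparisons were; 4 had an unadjusted p under 0.05, DESeq2 called 2 and voom 1. At 0 h, in libraries that enter the MAVS response difference, MAVS was already higher in LAC than in parental cells (0.50 ± 0.16, adjusted p = 0.0302 in edgeR). The 2 results are therefore not separate. That call at 0 h was lost without replicate 1 of LAC at 0 h (0.34, adjusted p = 0.133) or replicate 4 of the parental line at 0 h (0.45, 0.098). It was also lost with library size only (0.32, 0.138), in the compared groups alone (0.47, 0.116) and without libraries under 5000000 counts (0.27, 0.161). In LB2 MAVS ranged from 164 to 344 CPM at 0 h and from 236 to 279 CPM at 96 h (0.26 ± 0.18, adjusted p = 0.50). In LB1 it ranged from 147 to 176 CPM at 0 h, 197 to 291 at 16 h and 136 to 180 at 96 h, with no overlap between 0 and 16 h (log2 fold change 0.49, no test). Its difference from the parental response at 96 h was -0.71 in LB1, also with no test.

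**Figure D2:**
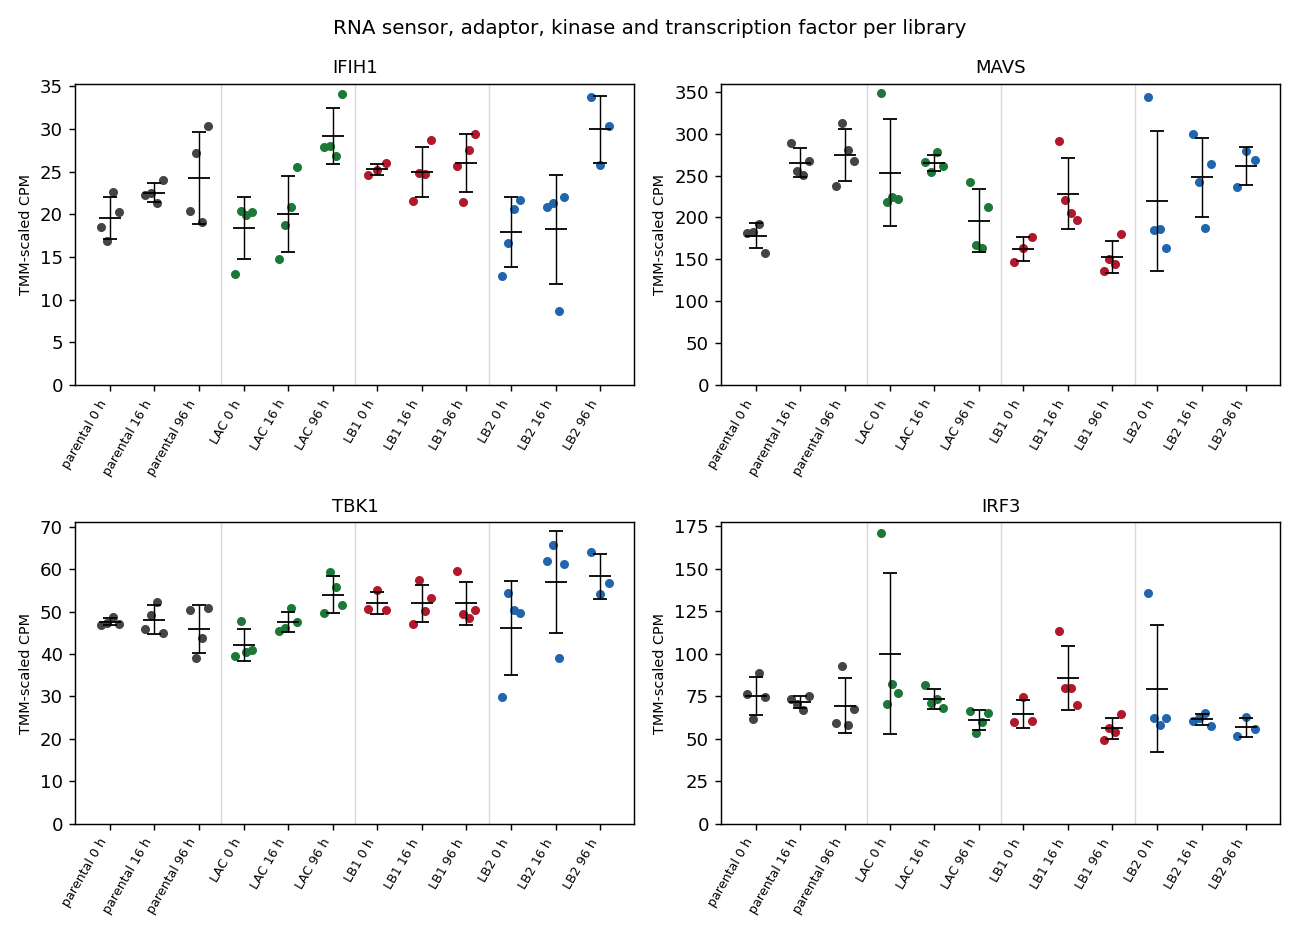
IFIH1, MAVS, TBK1 and IRF3 in TMM-scaled CPM in each library, grouped by line and hours of auxin; points are wells, horizontal bars are means and whiskers are SD. MAVS lies higher in parental wells with auxin than without, IFIH1 lies higher in LAC and LB2 at 96 h than at 0 h, and replicate 1 of LAC and of LB2 at 0 h lies far above its group for MAVS and IRF3.

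TBK1, the kinase on which both branches converge (ENSG00000183735, chromosome 12, 64452090 to 64502114), varied least. Its group means ran from 42.2 ± 3.79 CPM (SD, n = 4) in LAC at 0 h to 58.3 ± 5.20 CPM (n = 3) in LB2 at 96 h. LAC wells had 39.5, 47.8, 40.5 and 41.0 CPM at 0 h and 49.6, 59.2, 55.7 and 51.5 CPM at 96 h, with no overlap. This rise, 0.35 ± 0.12 (1.27-fold, adjusted p = 0.0467 in edgeR), was the weakest member call. It was lost in 33 of 56 alternatives, 29 of them fits that left out a single library, which gave adjusted p from 0.0196 to 0.149. TBK1 has a GC content of 38.6%, and with the GC trend removed its change in LAC was 0.02 (adjusted p = 0.939). Parental wells spanned 46.9 to 48.8 CPM at 0 h and 39.0 to 50.7 CPM at 96 h, and LB1 wells 50.4 to 55.1 and 48.4 to 59.4 CPM.

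IRF3, the transcription factor that TBK1 activates (ENSG00000126456, chromosome 19, 49659569 to 49665875), was lower in LAC at 96 h than at 0 h. LAC wells had 171, 70.6, 82.0 and 76.9 CPM at 0 h and 66.6, 53.2, 60.1 and 64.9 CPM at 96 h. No 96 h well reached the lowest 0 h well, and replicate 1 at 0 h stood far above the other wells. The change was -0.68 ± 0.20 (0.622-fold, adjusted p = 0.0135 in edgeR) with all libraries. Without replicate 1 at 0 h it was -0.31 (adjusted p = 0.284), without both libraries that stand apart -0.32 (0.109), without libraries under 5000000 counts -0.31 (0.126), and with the GC trend removed -0.24 (0.0933). The call was also lost in the compared groups alone (-0.71, adjusted p = 0.110) and without replicate 2 at 96 h (-0.62, 0.0581). In the other lines IRF3 differed by -0.11 (parental, adjusted p = 0.781), -0.43 (LB2, adjusted p = 0.319) and -0.19 (LB1, no test) at 96 h. IRF3 shares 734 exonic bases (19.3%) with BCL2L12 on the opposite strand, and whether reads were counted by strand is not given in the sources used here, so its counts are uncertain.

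Counted over the set, auxin at 16 and 96 h gave 7 calls in 36 tests in the parental, LAC and LB2 lines, against 6.55% of all gene comparisons: 6 higher and 1 lower. With the GC and length trend removed there were 5, all higher, and without replicate 3 of LB2 at 96 h or replicate 4 of the parental line at 0 h there were 4. By comparison, 1 of 6 members was called in parental cells at 16 h (9.01% of all genes) and 1 at 96 h (7.78%), both times MAVS. In LAC 3 of 6 were called at 96 h (15.4% of all genes) and in LB2 2 of 6 (3.55%). At 16 h edgeR called 0 of 6 in LAC (1.78% of all genes) and 0 of 6 in LB2 (1.81%), with 1 member at an unadjusted p under 0.05 in each; DESeq2 called 0 in both, and voom 0 in LAC and 2 in LB2.

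**Figure D3:**
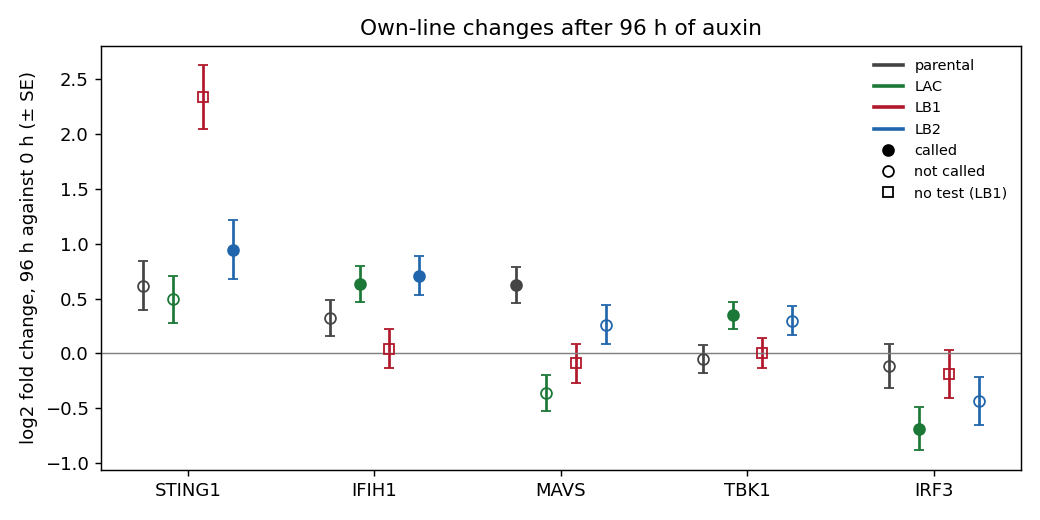
Log2 fold change from 0 to 96 h of auxin, with its standard error from the fit, for the 5 members with at least 1 CPM in every line, by line. Filled circles passed the threshold, open circles did not, and the open squares of LB1 carry no test; STING1 in LB1 (2.33) lies above every other value, and MAVS lies above 0 in parental cells (0.62) and below 0 in LAC (-0.36).

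Beyond the 8 members, 79 other genes of these pathways were examined in 6 lists, and 72 passed the filter. At 96 h 9 of the 72 changed in parental cells (12.5%, against 7.78% of all genes), 7 higher and 2 lower, with a median log2 fold change of 0.09 against -0.03 over all genes. In LAC 20 changed (27.8%, against 15.4%), 5 higher and 15 lower, with a median of -0.09 against 0.03. In LB2 5 changed (6.94%, against 3.55%), 2 higher and 3 lower, with a median of -0.01 against 0.00. In LB1 the median was -0.07 against 0.04, with no test and no count. At 0 h 19 of the 72 differed between LAC and parental cells (26.4%, against 15.8% of all genes), 14 higher and 5 lower, 1 in LB1 (1.39%, against 4.05%) and 7 in LB2 (9.72%, against 8.21%). Between LAC and parental cells at 0 h the differences of all genes followed GC content (Spearman's rho 0.48 across 8547 genes). The changes of all genes in LAC from 0 to 96 h did so too (rho -0.63). Neither trend was removed in these counts, nor in the LAC counts of the single lists below. Over the parental, LAC and LB2 lines and both times 23 were higher and 20 lower (6.55% of all gene comparisons were called), and 28 were called without replicate 1 of the parental line at 0 h. The split was 17 higher and 26 lower with RLE scaling, and 37 higher and 19 lower once the GC trend was removed. Set against the parental response, 7 of the 72 differed in LAC at 96 h (9.72%, against 7.4% of all genes), 3 higher and 4 lower. Over LAC and LB2 and both times these 7 were the only response differences called. The split over both lines was 5 and 1 with library size only, and 3 and 10 after removal of the GC trend. Single libraries decided the count. Leaving out replicate 4 at 0 h or replicate 2 at 96 h of the parental line, or replicate 2 of LAC at 96 h, gave 1. Leaving out replicate 3 of LAC at 96 h gave 3, and replicate 4 of that group, replicate 3 of LB1 at 0 h or replicate 3 of LB2 at 96 h gave 4. The count was 12 with replicate 2 of LAC at 0 h left out, and 14 without replicate 1 of LB2 at 0 h.

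Among the 11 RNA sensors and partners, 3 rose in parental cells at 96 h (27.3%, against 7.78% of all genes), 2 in LAC (18.2%, against 15.4%) and 2 in LB2 (18.2%, against 3.55%), and none was called lower. OAS1, which makes the activator of RNase L, rose from 5.96 ± 3.44 CPM (SD, n = 4) to 16.1 ± 1.67 in LAC (log2 fold change 1.27, adjusted p = 7.3e-05 in edgeR). At 0 h it was lower in LAC than in parental cells (-1.42, adjusted p = 2e-05). OAS1 stood at 12.5 ± 3.58 (n = 3) and 25.6 ± 5.10 (n = 4) in LB1 (0.93, no test). TLR3, the endosomal receptor for double-stranded RNA, rose in parental cells (0.71) from 13.5 ± 1.87 to 22.2 ± 4.36 CPM with an adjusted p of 0.049997, and 26 of 56 alternatives ended that call. At 16 h in parental cells it rose by 0.71 (adjusted p = 0.0435 in edgeR). In LAC at 96 h TLR3 rose by 0.83 (adjusted p = 0.0099), and in LB2 the change was 0.09 (0.915). TLR3 has a GC content of 41.0%, and the GC trend was not removed in that LAC value. TRIM25, a ubiquitin ligase of the RIG-I branch, rose in LB2 (0.58, adjusted p = 0.00765) and in parental cells (0.52, adjusted p = 0.00688). The LB2 call of TRIM25 was lost without replicate 3 at 96 h (0.50, adjusted p = 0.104) and in the compared groups alone (0.58, 0.158).

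Among the 8 genes of nucleic acid clearance and editing, DNASE2, the lysosomal DNase, was lower at 96 h in all 4 lines. It went from 66.2 ± 8.09 to 46.7 ± 4.14 CPM in parental cells (-0.50, adjusted p = 0.0132), from 51.3 ± 0.892 to 39.3 ± 3.61 in LAC (-0.38, 0.0419) and from 73.5 ± 10.6 to 42.5 ± 9.21 in LB2 (-0.77, 0.0006). In LB1 it went from 58.3 ± 2.72 to 29.5 ± 3.01 CPM (-0.97, no test). Of the 8, LAC had 1 higher and 3 lower, where 15.4% of all genes were called.

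Among the 16 genes that handle cGAMP or move STING, LAC had 1 higher and 5 lower at 96 h (37.5%, against 15.4% of all genes). The GC trend of LAC at 96 h was not removed in that count. In LB2 edgeR called 0, with 4 at an unadjusted p under 0.05, DESeq2 1 and voom 0. SURF4, which returns STING to the endoplasmic reticulum, fell in LAC from 618 ± 24.3 to 410 ± 22.8 CPM (-0.59, adjusted p = 0.0022). Its difference from the parental change was -0.84 ± 0.19 (adjusted p = 0.0071) and was called under each of the 56 alternatives. At 0 h, in libraries that enter that difference, SURF4 was already higher in LAC than in parental cells (0.83, adjusted p = 3.5e-05), and at 96 h it stood at 413 ± 39.1 CPM in parental cells. RNF26, a ubiquitin ligase of STING, and SLC19A1, an importer of cGAMP, also differed from the parental change in LAC (-0.64, adjusted p = 0.0332; -1.18, adjusted p = 0.04995). The RNF26 call was lost with the GC trend removed (-0.35, adjusted p = 0.193), and in 8 other alternatives, and the SLC19A1 call in 28 of 56, among them without replicate 1 of LAC at 0 h (-0.75, adjusted p = 0.168). SLC19A1 was higher in LAC than in parental cells at 0 h (1.05, adjusted p = 0.00656). Its GC content is 63.1%, and the GC trend at 0 h was not removed in that value.

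Among the 17 adaptors, kinases and transcription factors, 4 fell in LAC at 96 h (23.5%, against 15.4% of all genes), with RELA and IRF7 among them. Compared with the parental change, TANK (0.75, adjusted p = 0.0442) and IKBKB (0.61, adjusted p = 0.0260) were higher in LAC and RELA lower (-0.59, adjusted p = 0.0390). TANK was lost in 29 of 56 alternatives, among them without both libraries that stand apart (0.57, adjusted p = 0.0665), IKBKB in 8, among them without replicate 1 of LAC at 0 h (0.53, 0.0664), and RELA in 15, among them with the GC trend removed (-0.28, 0.465). At 0 h the LAC line already differed from parental cells the opposite way for TANK (-0.61, adjusted p = 0.0111), IKBKB (-0.53, 0.0027) and RELA (0.54, 0.00284), and those libraries enter both comparisons. The GC trend at 0 h was not removed in these values. TANK has a GC content of 40.0%, IKBKB 53.2% and RELA 61.3%. IRF7, which amplifies interferon, fell in parental cells from 39.0 ± 7.99 to 25.4 ± 2.76 CPM (-0.62, adjusted p = 0.0422), and 17 of 56 alternatives ended that call. In LAC its change at 96 h was -1.28 (adjusted p = 8.6e-06 in edgeR), and in LB2 it was -0.54 (0.183). IRF7 has a GC content of 67.2%, and the GC trend was not removed in that LAC value.

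Of the 15 interferon outputs, 10 passed the filter. IFNB1, the gene that IRF3 turns on, had 26 counts over all libraries and at most 5 in 1 library. IFNL1 and IFNL2 had 1 count each, IFNL3 had 0 and CXCL10 had 6. At 96 h edgeR called 2 of the 10 in LAC, ISG15 and STAT2, both lower (20.0%, against 15.4% of all genes), and 0 in parental cells and LB2, where 1 and 4 had an unadjusted p under 0.05. DESeq2 called 0 and 1 in those lines, and voom 2 and 1. ISG15, a ubiquitin-like protein induced by interferon, went from 125 ± 90.4 to 44.1 ± 6.22 CPM in LAC (-1.47, adjusted p = 0.0015), and without replicate 1 at 0 h the change was -0.85 (adjusted p = 0.0508). The median log2 fold change of the 10 was -0.28 in parental cells (-0.03 over all genes), -0.04 in LAC (0.03), 0.18 in LB2 (0.00) and, with no test, 0.04 in LB1 (0.04).

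**Figure D4:**
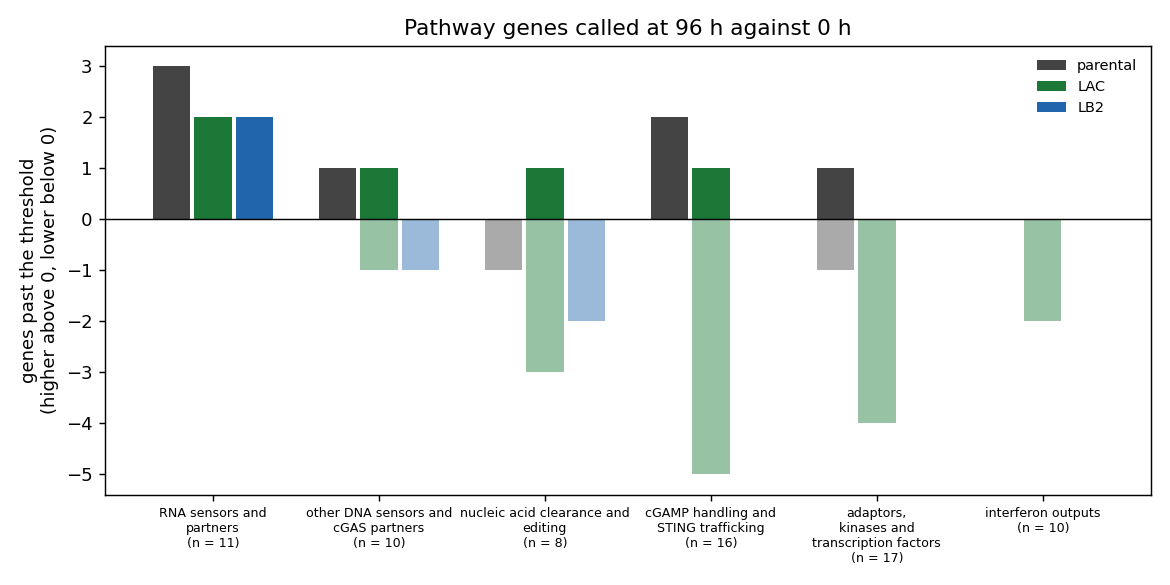
Number of genes of each pathway list past the threshold at 96 h against 0 h, for the parental, LAC and LB2 lines; solid bars above 0 count genes that were higher, pale bars below 0 genes that were lower, and n is the number tested. LB1 is not shown, as no count was made there. The GC trend of LAC was not removed in these counts. RNA sensors and partners have bars above 0 alone, and the largest bar below 0 is LAC in cGAMP handling and STING trafficking, with 5 genes.

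For TBK1, IRF3 and IFIH1, the most similar genes over the 12 group means were PDE8A for TBK1 (Pearson's r 0.91), PEX16 for IRF3 (0.95) and ARNT2 for IFIH1 (0.90). These are descriptions over means that share libraries, depth and base composition, chosen as the highest of 14006 genes.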

How the data were processed

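RNA from 46 wells was sequenced after ribosomal depletion with a stranded kit, per the labels' protocols. The deposited table holds unnormalised counts for each gene, which the authors made with featureCounts 1.6.4 per the file headers. STAR 2.7.10a and the GRCh38 build come from the submitters' processing notes; the strand setting, the handling of reads with several positions and the annotation release are not given in the sources used here. All 46 columns were matched to libraries by name, and 62756 genes were used, after 1 gene broken over 3 lines was left out.

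An edgeR 4.0.16 model (R 4.3.3, quasi-likelihood) was fitted to the counts of 46 libraries in 12 groups, with TMM scaling and the default filter by group (21484 genes). P-values are two-sided and adjusted by Benjamini-Hochberg over all genes tested in each of 17 comparisons. Called means that the adjusted p was below 0.05. A response difference is a tagged line's change minus the parental one. Intervals on log2 values are 95% intervals from the standard error of the fit, and those on summed counts are exact. Library totals of 479446 to 37309421 counts set the precision. The fit was tested on simulated data. A planned count of calls in LB1 after auxin was dropped, and LB1 was left out of the planned pathway counts, because those comparisons chose the set.

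The members, lists and tests were chosen with earlier results of these data known. Named genes were the 8 members, list genes called in the response differences at 96 h, and, for each line at 96 h, the list gene that rose and the one that fell most among those called with a mean of at least 1 CPM. Calls in LB1 entered this choice and named OAS1 and DNASE2. LAC also named OAS1, and LB2 also named DNASE2. Genes of like pattern were those with the highest Pearson's r over the 12 group means of log2 CPM (prior count 2), 3 for STING1 and 1 for each other member; that for MAVS is not reported here. GC content came from GENCODE release 29, and exon overlaps from the exon positions listed in the deposited count table. Promoters came from RefSeq for the members with an entry (TBK1, IFI16, TREX1, IFIH1 and MAVS). Alternatives were scaling by RLE or by library size only, all genes with no filter, DESeq2 1.42.0, limma 3.58.1 voom with sample weights, the compared groups alone, a replicate block, no libraries under 5000000 counts, a GC and length offset, and each library left out in turn. Leaving out both libraries that stand apart was added after seeing the data.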

Additional observations from a re-analysis of the deposited data

Results flagged for a closer look

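Of 60 combinations of a gene and a group of 4 wells, 9 held a well whose distance from its nearest neighbour was large for the group's range, where chance gives about 1 in 20. Replicate 1 of LAC at 0 h was highest in its group for IRF3 (171 CPM) and MAVS (349 CPM) and lowest for IFIH1 (12.9 CPM). Replicate 1 of LB2 at 0 h was highest for IRF3 (136 CPM) and MAVS (344 CPM). Replicate 3 of LB2 at 16 h, the library with the fewest counts, was lowest for TBK1 (39.2 CPM) and IFIH1 (8.70 CPM, from 4 counts). In LAC at 96 h replicate 2 was highest for CGAS (1.06 CPM, from 19 counts) and replicate 4 for IFIH1 (34.0 CPM).

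The change from 0 to 96 h differed between LAC and parental cells, by edgeR's test of the difference itself, for 8 genes. MAVS (-0.98), SLC19A1 (-1.18), SURF4 (-0.84), RNF26 (-0.64) and RELA (-0.59) were lower in LAC relative to parental cells on the log2 scale. OAS1 (1.09), TANK (0.75) and IKBKB (0.61) were higher. Of the 8, MAVS and SURF4 passed the threshold under each of the 56 alternatives run.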

How the results depend on the processing

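No gene value tested under these alternatives changed its direction. The 7 member calls with auxin in parental, LAC and LB2 cells became 4 in the compared groups alone, 3 of them among the 7, and 12 with voom, which included all 7. Leaving out each library in turn gave 4 to 9; the count was 4 without replicate 3 of LB2 at 96 h or replicate 4 of the parental line at 0 h. The single response difference of a member became 2 with DESeq2 and with library size only, and leaving out libraries gave 1 throughout. The 5 calls at 0 h ranged from 4 to 6. Pathway calls with auxin in those lines went from 43 to 100 with voom (28 to 59 without single libraries). Pathway response differences went from 7 (3 higher, 4 lower) to 13 with the GC trend removed (3 and 10), 13 without both libraries that stand apart, 22 with voom, 6 with library size only (5 and 1), and 1 to 14 when single libraries were left out. The cause was not tested.

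With the replicate block the counts were 7, 1 and 5 for the members and 46 and 8 for the pathway lists, and no call of a named gene changed. Whether the replicate numbers pair the wells was not settled. Deviations of same-numbered wells correlated with a median r of 0.08 over 243 pairs (-0.71 to 0.84), against -0.01 for 726 others. A median over all pairs cannot exclude pairing within some groups, and both libraries that stand apart are replicate 1 at 0 h. Library size only shifted the median of all genes by up to 0.21 on the log2 scale (LAC response at 96 h). Depth limits CGAS in the tagged lines and STING1 in LB1 at 0 h.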
